A study of Mus musculus with 6 samples.

Results

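Serine, leucine and selenocysteine (SeC) tRNAs are the nuclear tRNAs of mammals that carry a long variable arm, an extra stem between the anticodon stem and the T stem. The members were all mature and precursor tRNA features of these 3 isotypes in the table of small RNAs from mouse hearts, without Leu-CAA, whose genes hold an intron. This rule took 86 of 30638 features, 34 mature and 52 precursor, and left out 8 features of Leu-CAA. Serine had 17 mature and 25 precursor features, leucine had 16 mature and 26 precursor features, and SeC had 1 of each. A mature feature stands for 1 tRNA sequence, as in Leu-TAA-2, and a precursor feature for 1 gene copy that yields it, as in Leu-TAA-2-1. The other nuclear tRNAs gave 653 features, 234 mature and 419 precursor.

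The hearts came from 6 C57BL/6 mice whose age the labels do not give. The 3 knockout mice, titled L/L, cre and labelled Elac2 -/-, carried floxed Elac2 alleles and a cre recombinase driven by the muscle creatine kinase promoter. The 3 control mice, titled L/L and labelled Elac2 +/+, had the same floxed design without cre. That promoter acts in muscle cells, so the other cells of the whole hearts that were extracted keep Elac2. Libraries were built from inserts of 15 to 100 nt.

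Elac2 encodes RNase Z, the endonuclease that cuts the 3′ trailer off a precursor tRNA in the nucleus and in mitochondria, after which the CCA end is added and an amino acid can be attached. A precursor still has its 5′ leader and 3′ trailer, which differ between gene copies, and how the authors divided reads between precursor and mature features is not stated in the labels. The long variable arm is the part that seryl-tRNA synthetase holds when it charges a tRNA with serine. The SeC tRNA is also charged with serine, which is then converted to selenocysteine on the tRNA and inserted at UGA codons of selenoprotein mRNAs. In vertebrates its transcript starts at the first base of the tRNA, so its precursor has a trailer and no leader.

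Bases of the part that RNase Z removes can be read in 2 serine tRNA transcripts of GENCODE M21 (GRCm38). They are n-TStga1 at chr13:23518142-23518250 (plus strand) and Gm44456 at chr13:21924928-21925016 (minus strand), which holds the RefSeq gene n-TStga2 (GRCm38.p6). Their trailers, the bases after the last base of the RefSeq tRNA, are shown because reads of n-TStga1 bear on the Ser-TGA result described later. Capitals mark all bases after the tRNA up to the end of the annotated transcript, written 5′ to 3′ in the sense of the tRNA. That end comes from the annotation, and the length of the trailer that is transcribed was not tested.
n-TStga1 trailer: TGAATGTATTTTCTTGACATGTA
n-TStga2 trailer: GTTTTAC

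Both tRNAs are 82 nt long with a variable region of 14 nt, and they differed from each other at 0 positions, so only leader and trailer letters tell these genes apart. The RefSeq serine and leucine genes without Leu-CAA were longer than the median of other tRNA genes, with 1 exception. The length of the SeC gene was not analysed here. Genes of Ser-AGA, Ser-CGA, Ser-GCT, Ser-TGA, Leu-AAG and Leu-TAG were 82 nt and those of Leu-CAG and Leu-TAA 83 nt. The median was 72 nt over 387 other RefSeq tRNA genes, a set that was not limited to nuclear genes and kept Leu-CAA. The single gene of Ser-GGA was 73 nt, which goes against the name of the group, and Ser-GGA features had at most 1 read in any library.

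Total counts were 14505705, 15271036 and 14947237 in knockout libraries and 13510061, 16248673 and 15951770 in control libraries, and the members took few of them. They summed to 2880, 3282 and 2859 counts in knockout hearts, against 2548, 2823 and 2931 in control hearts. These raw sums overlapped. As shares of all counts the members did not overlap, at 0.0199%, 0.0215% and 0.0191% in knockout hearts and 0.0189%, 0.0174% and 0.0184% in control hearts. All nuclear tRNAs together had 73351, 60816 and 90163 counts in knockout hearts and 405012, 503535 and 644238 in control hearts, which did not overlap. Elac2 mRNA was not analysed here. MicroRNAs that mark heart muscle were present, with summed levels of 72669 to 93284 CPM (counts per 1e6 of scaled library size) in knockout hearts and 117837 to 148037 CPM in control hearts. Of these 7 marker genes, 1 was higher, 2 were lower and 4 were not called. Summed markers of blood (2337 to 3082 against 2715 to 3812 CPM; 1 of 4 tested higher, 1 lower), endothelium (17620 to 20972 against 19531 to 23763 CPM; 0 of 1 called) and smooth muscle and fibroblasts (24418 to 32253 against 27829 to 34995 CPM; 2 of 4 higher) overlapped between knockout and control hearts, while Mir223, Mir126b, Mir199a-2 and Mir214 were at 0. The part of cell composition in the results was not tested, and in whole hearts fewer cells of a type and less RNA per cell cannot be told apart.

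Precursor reads of the members were more numerous in knockout hearts and mature reads fewer. Precursor members summed to 1683, 2072 and 1740 counts in knockout hearts, against 496, 655 and 758 in control hearts. Mature members summed to 1197, 1210 and 1119 counts in knockout hearts, against 2052, 2168 and 2173 in control hearts. Neither pair of groups overlapped, and precursor reads made up 60.8% ± 2.35 of member reads in knockout hearts and 22.8% ± 3.21 in control hearts (SD, n = 3 each). For the other nuclear tRNAs that percentage was 8.11% ± 1.90 in knockout hearts and 0.971% ± 0.0541 in control hearts. A single gene copy, Ser-AGA-2-2, gave most of the rise in member precursor counts. It had 1034, 1476 and 1154 reads in knockout hearts and 159, 195 and 165 in control hearts. The member sums and percentages were not computed without that copy.

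Of the 52 precursor members, 42 had a read in some library and 16 passed the filter on low counts. Tested by quasi-likelihood in edgeR, at a Benjamini-Hochberg adjusted p under 0.05, 7 of the 16 were higher (43.8%) and 1 was lower (6.25%), and 9 of the 16 had groups that did not overlap. Of those called, Ser-CGA-2-1, Leu-CAG-1-5, Ser-GCT-4-2 and Ser-GCT-4-3 passed the filter only through knockout hearts, and SeC-TCA-1-1 only through control hearts. For these copies the filter itself favoured the direction called. Scaling by snoRNA and scaRNA genes gave 6 higher and 7 lower. Over all 1144 features tested, 50.2% were called, 23.2% higher and 27.0% lower, and 63.0% did not overlap. Over all 114 precursor tRNA features tested, 37.7% were higher and 12.3% lower, which is near the members' own counts. The members' median log2 fold change was 0.86, against 0.20 for 98 other precursor tRNAs and -0.01 for all features. Among the 42 with reads, 20 had every knockout level above every control level (47.6%), 3 had every one below (7.14%) and 19 overlapped. That compares with 38.5% above and 9.17% below for all 338 precursor tRNA features with reads, and with 5.63% above and 16.8% below for all 9254 features with reads.

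Ser-AGA, which reads UCU and related serine codons, held most of the precursor member reads in knockout hearts. Summed over its gene copies, precursor Ser-AGA had 82.4, 121 and 98.1 CPM in knockout hearts, against 14.1, 13.3 and 12.5 CPM in control hearts. Every knockout heart was far above every control heart, and the log2 fold change was 2.92 ± 0.22 (SE, adjusted p = 2.1e-07). In this fit, in which tRNA reads were summed per anticodon and form, 52.6% of the 998 features tested were called, 26.9% higher and 25.8% lower, and 63.9% did not overlap. Of the 8 member precursor sums tested, 4 were higher and 1 lower, against 46.7% higher and 8.89% lower for all 45 precursor sums. The Ser-CGA sum passed the filter only through knockout hearts, and the SeC sum only through control hearts.

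The other serine precursors that rose were those of Ser-CGA, which reads UCG, and Ser-GCT, which reads AGC and AGU. Precursor Ser-CGA had 2.17, 2.14 and 1.54 CPM in knockout hearts and 0.333, 0.102 and 0.266 CPM in control hearts (log2 fold change 3.06 ± 0.45, adjusted p = 7.81e-05). Precursor Ser-GCT had 10.5, 10.8 and 11.0 CPM in knockout hearts and 4.13, 3.81 and 6.22 CPM in control hearts (log2 fold change 1.19 ± 0.25, adjusted p = 0.00107). In both, all knockout hearts lay above all control hearts. The Ser-GCT call was lost when libraries were scaled by snoRNA and scaRNA genes (log2 fold change 0.24).

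**Figure D1:**
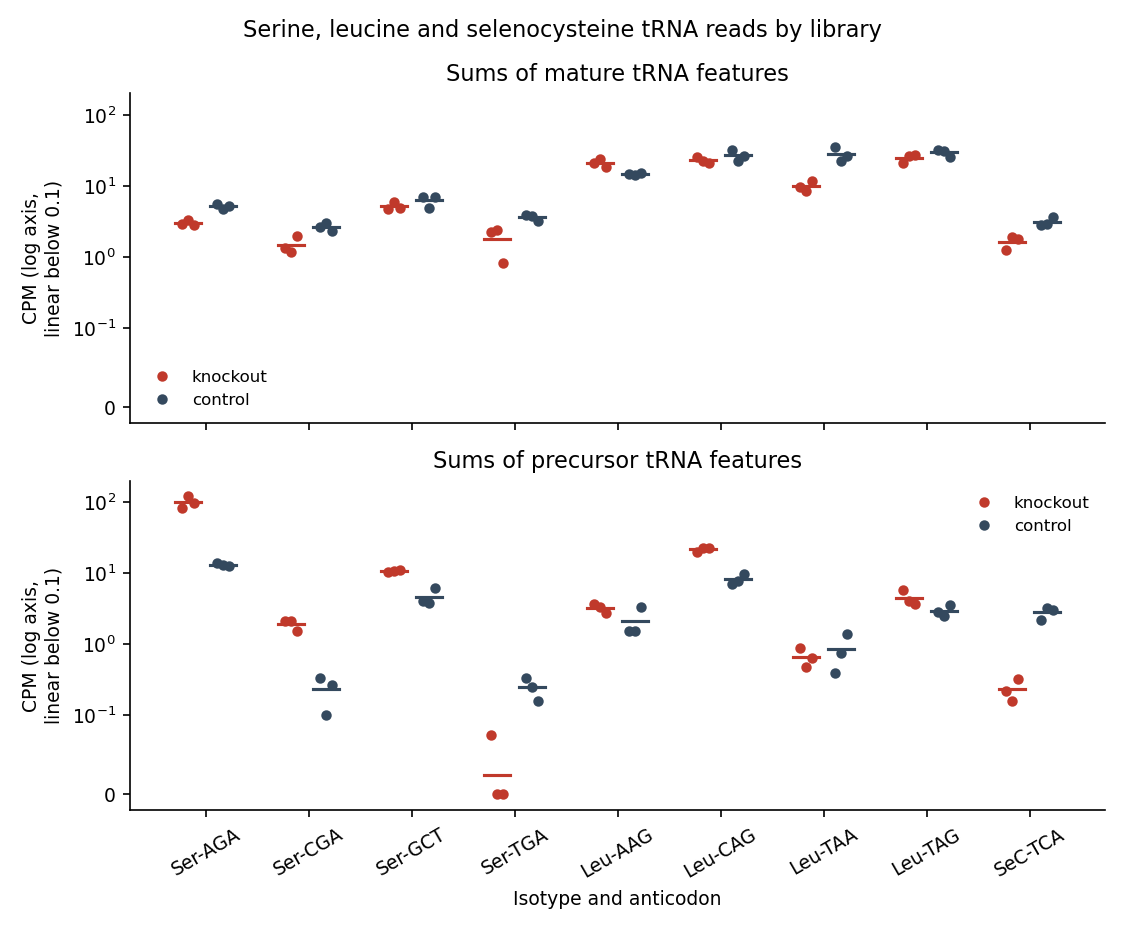
Summed level per anticodon of mature (top) and precursor (bottom) tRNA features in each library, in CPM on a log axis that is linear below 0.1. Points are hearts, 3 knockout to the left of 3 control, and lines are group means. Precursor Ser-AGA is at 82.4 to 121 CPM in knockout hearts and at 12.5 to 14.1 CPM in control hearts, while precursor SeC-TCA is at 0.159 to 0.325 CPM in knockout hearts and at 2.2 to 3.30 CPM in control hearts.

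Among the leucine precursors 1 sum of 4 was called. Precursor Leu-CAG, of the tRNA that reads CUG, had 19.9, 22.6 and 23.1 CPM in knockout hearts and 7.13, 7.72 and 9.79 CPM in control hearts. The groups did not overlap, and the log2 fold change was 1.41 ± 0.22 (adjusted p = 0.000115), a call that was lost under snoRNA and scaRNA scaling (log2 fold change 0.46). Precursor Leu-TAG, of the tRNA for CUA, had 5.90, 4.05 and 3.73 CPM in knockout hearts and 2.86, 2.49 and 3.62 CPM in control hearts. These groups were separate by a narrow margin and the difference was not called (log2 fold change 0.61 ± 0.28, adjusted p = 0.0816). Precursors of Leu-AAG (log2 fold change 0.60 ± 0.34, adjusted p = 0.158), which reads CUU and CUC, and of Leu-TAA (-0.35 ± 0.49, adjusted p = 0.571), which reads UUA, overlapped between groups and were not called. Precursors of Leu-AAG and Leu-TAG had negative values under snoRNA and scaRNA scaling and were called higher under snRNA and rRNA scaling (1.10 and 1.06). Precursor Leu-TAG was also called higher with no filter (0.89), and precursor Leu-AAG without control replicate 3 (0.95). The precursor of Leu-TAA was called lower under snoRNA and scaRNA scaling (-1.30) and had a positive value under snRNA and rRNA scaling.

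The SeC precursor moved the other way. Precursor SeC-TCA-1-1, the only SeC gene copy listed, had 3, 2 and 4 reads in knockout hearts, against 33, 65 and 57 in control hearts. Every knockout library was below every control library by a wide margin, and its sum had a log2 fold change of -3.56 ± 0.42 (adjusted p = 1.14e-05). With TMM factors and every library included, it was the only member precursor called lower. The knockout value rests on 9 reads in all, yet the call held in every alternative in which it was tested.

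**Figure D2:**
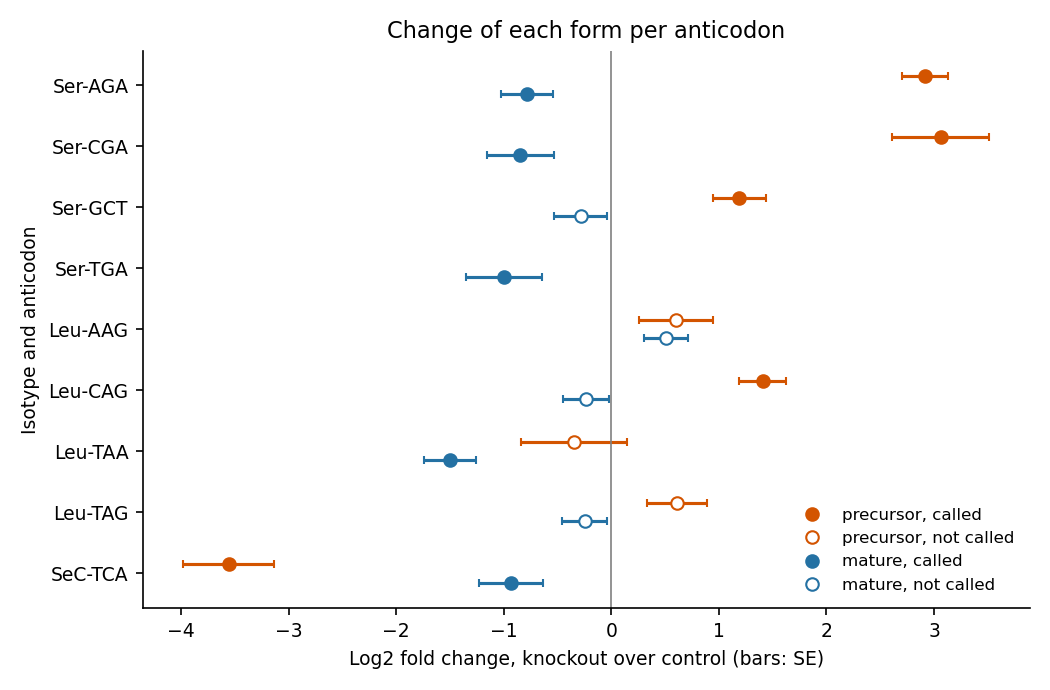
Log2 fold change, knockout over control, of the summed precursor (orange) and mature (blue) reads of each anticodon, with bars of 1 SE from edgeR's quasi-likelihood fit of 3 knockout and 3 control libraries. Filled points passed an adjusted p under 0.05, and open points did not. Precursor values run between -3.56 for SeC-TCA and 3.06 for Ser-CGA, and the 5 called mature values lie between -1.50 and -0.79.

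With TMM factors and the filter on low counts, all mature members that were called were lower. Of 34 mature members, 29 had reads and 21 passed the filter, and edgeR called 0 higher and 6 lower (28.6%). Under snRNA and rRNA scaling, edgeR called 5 higher and 1 lower, and with no filter 1 higher and 1 lower. The direction of the mature calls thus depended on the scaling and the filter. Over all 124 mature tRNA features tested, 12.1% were higher and 38.7% lower. The median log2 fold change was -0.45 for the members and -0.44 for the other mature tRNAs, so the members' median was close to that of the others. Summed per anticodon, 5 of 9 mature member sums were lower and 0 higher, against 48.9% lower and 10.6% higher for all 47 mature sums. Among the 29 mature members with reads, 14 had every knockout level below every control level (48.3%) and 3 had every one above (10.3%), against 31.0% and 19.4% for all mature tRNA features with reads.

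Leu-TAA had the largest called change among the mature sums. Mature Leu-TAA had 9.71, 8.57 and 11.8 CPM in knockout hearts and 35.6, 22.8 and 26.8 CPM in control hearts, with no overlap (log2 fold change -1.50 ± 0.24, adjusted p = 0.00014). Nearly all of it was Leu-TAA-2, with 9.23, 8.15 and 10.6 CPM in knockout hearts and 34.2, 24.6 and 26.8 CPM in control hearts. Leu-TAA-2 fell by 1.61 ± 0.22 on the log2 scale (adjusted p = 0.000115). These calls of Leu-TAA were kept in every alternative run.

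The other mature sums that fell were small. Mature SeC-TCA averaged 1.65 ± 0.338 CPM in knockout hearts and 3.14 ± 0.456 CPM in control hearts (log2 fold change -0.93 ± 0.30, adjusted p = 0.0186). Mature Ser-AGA averaged 3.03 ± 0.266 CPM in knockout hearts and 5.23 ± 0.445 CPM in control hearts (log2 fold change -0.79 ± 0.24, adjusted p = 0.0147). Both had no overlap between groups (SD, n = 3 each). Mature Ser-CGA had 1.34, 1.19 and 1.95 CPM in knockout hearts and 2.66, 3.05 and 2.34 CPM in control hearts (log2 fold change -0.85 ± 0.31, adjusted p = 0.0376). Mature Ser-TGA, which reads UCA, had 30, 30 and 10 reads in knockout hearts and 59, 74 and 61 in control hearts (log2 fold change -0.999 ± 0.35, adjusted p = 0.0297). The Ser-CGA and Ser-TGA groups were also separate, with knockout replicate 3 the lowest for Ser-TGA.

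These 4 smaller calls depended on single libraries and on the scaling. Scaling by snRNA and rRNA genes ended all 4, with values between -0.62 and -0.35, and so did a fit with no filter on low counts. Ser-AGA was no longer called without knockout replicate 3 (log2 fold change -0.74). The SeC call was lost without knockout replicate 1 (-0.77) or control replicate 3 (-0.94). The Ser-CGA call was lost without knockout replicate 1 (-0.77), knockout replicate 2 (-0.71) or control replicate 2 (-0.80), and the Ser-TGA call without knockout replicate 1 (-1.18), knockout replicate 3 (-0.65) or control replicate 2 (-1.02).

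Mature leucine tRNAs other than Leu-TAA did not pass the test. Mature Leu-AAG had 20.9, 23.6 and 18.3 CPM in knockout hearts and 14.7, 14.4 and 15.1 CPM in control hearts (log2 fold change 0.51 ± 0.20, adjusted p = 0.0504). All knockout hearts were above all control hearts here. The value was negative under snoRNA and scaRNA scaling (-0.43), while the sum was called higher under snRNA and rRNA scaling (0.95), with no filter on low counts (0.79) and without knockout replicate 3 (0.60). Mature Leu-CAG (log2 fold change -0.23 ± 0.21, adjusted p = 0.37), Leu-TAG (-0.25 ± 0.21, adjusted p = 0.335) and Ser-GCT (-0.29 ± 0.24, adjusted p = 0.343) overlapped between groups. All 3 turned positive when scaled by snRNA and rRNA genes, and all 3 were called lower with total counts (-0.67, -0.70 and -0.73) and under snoRNA and scaRNA scaling (-1.18, -1.19 and -1.23). Within mature Ser-GCT, the feature Ser-GCT-2 fell, with 9, 9 and 6 reads in knockout hearts and 21, 21 and 37 in control hearts (log2 fold change -1.32 ± 0.37, adjusted p = 0.0113). That feature passed the filter only through control hearts. Its call was lost without knockout replicate 3 (-1.09) or control replicate 3 (-1.06), under snRNA and rRNA scaling (-0.77) and with no filter (-0.96).

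Of the remaining mature features, the most abundant were not called. Leu-TAG-3 had a log2 fold change of -0.54 (adjusted p = 0.0583), Leu-AAG-2 of 0.42 and Leu-AAG-1 of 0.38. Leu-TAG-1, Leu-CAG-1, Leu-CAG-2 and Leu-CAG-3 had values between -0.41 and -0.21. Scaling by snoRNA and scaRNA genes made both Leu-AAG values negative, and scaling by snRNA and rRNA genes made those of the other 5 positive. Under snRNA and rRNA scaling, Leu-AAG-2 (0.95) and Leu-AAG-1 (0.93) were called higher, as was Leu-AAG-2 with no filter (0.77). Leu-TAG-1, Leu-CAG-1 and Leu-CAG-2 were called lower with total counts (-0.60, -0.55 and -0.75). Under snoRNA and scaRNA scaling, they and Leu-CAG-3 were called lower (-1.09, -1.06, -1.26 and -1.08). Leu-TAG-3 was called lower with total counts (-0.89), miRNA genes (-0.72), snoRNA and scaRNA genes (-1.38), DESeq2 size factors (-0.56) and DESeq2 (-0.56). Further serine features were lower, Ser-AGA-2 with 18, 17 and 16 reads in knockout hearts and 41, 50 and 46 in control hearts (adjusted p = 0.0062; call lost under snRNA and rRNA scaling at -0.51 and with no filter at -0.69), and, named after their values were seen, Ser-AGA-1 and Ser-TGA-2 (log2 fold changes -0.73 and -0.99). SeC-TCA-1 had 17, 24 and 22 reads in knockout hearts and 43, 57 and 69 in control hearts.

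The precursor-to-mature ratio within a library does not depend on how libraries are scaled. It was tested with limma as log2((precursor + 1)/(mature + 1)) over 45 nuclear anticodons with a mean of at least 5 reads in each form. Of 8 member anticodons tested, 5 were higher and 1 was lower in knockout hearts. The groups of 6 of the 8 did not overlap. Over all 45 anticodons 66.7% were higher, 11.1% were lower and 80.0% did not overlap. Of the 37 other anticodons 25 were higher (67.6%), so a raised ratio was about as frequent among them as among the members. These others include Leu-CAA, a leucine tRNA left out by the rule, whose ratio was called lower (log2 change -1.27 ± 0.37, limma adjusted p = 0.0144).

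The ratio rose for the 3 serine anticodons tested. Precursor reads made up 96.6%, 97.3% and 97.2% of Ser-AGA reads in knockout hearts, against 71.4%, 73.6% and 70.4% in control hearts (log2 change in ratio 3.66 ± 0.20, limma adjusted p = 3.59e-06). For Ser-CGA they made up 61.7%, 64.3% and 44.2% in knockout hearts and 11.1%, 3.23% and 10.2% in control hearts (3.72 ± 0.48, limma adjusted p = 0.00021). Knockout and control hearts were well apart in both. For Ser-GCT the percentages were 69.1%, 64.8% and 69.0% in knockout hearts and 36.9%, 43.6% and 47.2% in control hearts (1.49 ± 0.23, limma adjusted p = 0.000508).

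Of the 4 leucine anticodons, 2 had a ratio that was called higher. Leu-CAG had 44.0%, 50.4% and 52.2% precursor reads in knockout hearts and 18.4%, 25.8% and 26.7% in control hearts (log2 change 1.64 ± 0.26, limma adjusted p = 0.000605), with no overlap. Leu-TAA had 8.45%, 5.26% and 5.23% in knockout hearts and 1.11%, 3.23% and 4.91% in control hearts (1.33 ± 0.50, limma adjusted p = 0.0405). The Leu-TAA groups were separate by a small margin. Its call was lost when any library other than control replicate 3 was left out, with log2 changes of 0.75 to 1.47. Leu-TAG (0.84 ± 0.35, limma adjusted p = 0.0538) and Leu-AAG (0.19 ± 0.32, limma adjusted p = 0.59) overlapped between groups and were not called.

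SeC was the member whose ratio fell. Precursor reads were 15.0%, 7.69% and 15.4% of SeC reads in knockout hearts, against 43.4%, 53.3% and 45.2% in control hearts. The groups were far apart (log2 change -2.32 ± 0.30, limma adjusted p = 0.00021). Both forms of SeC were lower in knockout hearts, the precursor more so than the mature tRNA.

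**Figure D3:**
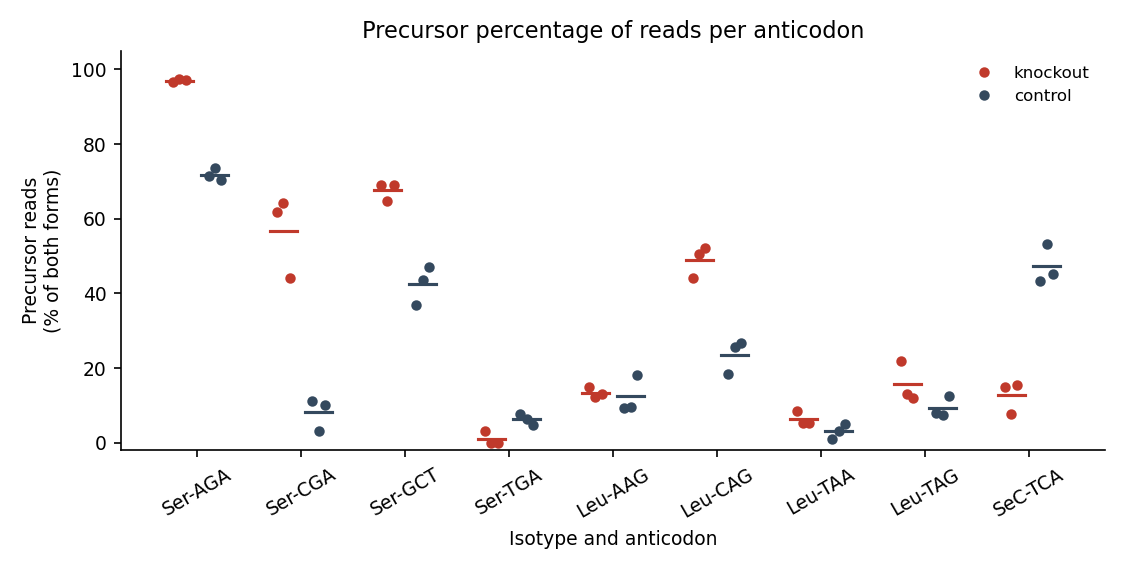
Precursor reads as a percentage of precursor plus mature reads of each anticodon, per library. Points are hearts, 3 knockout to the left of 3 control, and lines are group means. Ser-AGA is at 96.6% to 97.3% in knockout hearts and at 70.4% to 73.6% in control hearts, and SeC-TCA is at 7.69% to 15.4% in knockout hearts and at 43.4% to 53.3% in control hearts.

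Gene copies of 1 anticodon had unlike values, although differences between copies were not tested. Precursor Ser-AGA-2-2 had 1034, 1476 and 1154 reads in knockout hearts and 159, 195 and 165 in control hearts. That copy held 93.7%, 97.0% and 95.5% of precursor Ser-AGA reads in knockout hearts and 75.0%, 74.4% and 70.2% in control hearts, and rose by a log2 fold change of 3.20 ± 0.23 (adjusted p = 1.28e-06). Precursor Ser-AGA-2-3, which yields the same mature Ser-AGA-2, had 38, 22 and 23 reads in knockout hearts and 50, 59 and 59 in control hearts. All knockout hearts were below all control hearts for this copy, and the difference was not called (log2 fold change -0.65 ± 0.27, adjusted p = 0.0669). It was called lower with total counts (-0.98), miRNA genes (-0.82), snoRNA and scaRNA genes (-1.49) and without knockout replicate 1 (-0.82).

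The Ser-AGA precursor call rested on that main copy. Without Ser-AGA-2-2, precursor Ser-AGA had 69, 46 and 55 reads in knockout hearts and 53, 67 and 70 in control hearts, and its sum was not called (log2 fold change 0.32 ± 0.25, adjusted p = 0.295). Its ratio to mature Ser-AGA still rose without that copy (log2 change 1.07 ± 0.23, limma adjusted p = 0.00408). Minor copies too low for the test, named after their values were seen, were Ser-AGA-1-1 with 25 reads over the knockout hearts and 3 over the control hearts, and Ser-AGA-2-6 with 20 and 3 reads. Both had every knockout heart above every control heart.

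Precursor Ser-CGA reads came almost wholly from a single copy in knockout hearts. Ser-CGA-2-1 had 28, 23 and 19 reads in knockout hearts and 0 in every control heart. Taking 3 reads over the control group as the limit that a count of 0 allows, it was at least 30.2-fold higher in knockout hearts. It passed the filter on low counts only through the knockout hearts. The other copies were too low for the test, and Ser-CGA-1-1 had 0, 3 and 0 reads in knockout hearts and 4, 2 and 3 in control hearts.

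Among copies of Ser-GCT-4, 2 of 3 were called. Precursor Ser-GCT-4-3 had 35, 51 and 39 reads in knockout hearts and 6, 5 and 7 in control hearts (log2 fold change 3.15 ± 0.35, adjusted p = 2.41e-05). Ser-GCT-4-2, named after its values were seen, had 24, 16 and 27 reads in knockout hearts and 4, 5 and 9 in control hearts (2.25 ± 0.40, adjusted p = 0.000535). Both copies passed the filter on low counts only through knockout hearts. Their sister copy Ser-GCT-4-1, with the same mature sequence name, had 32, 40 and 32 reads in knockout hearts and 33, 37 and 68 in control hearts. Its groups overlapped and it was not called (-0.02 ± 0.30, adjusted p = 0.969). Ser-GCT-4-1 thus held 25.2% ± 3.66 of precursor Ser-GCT reads in knockout hearts, against 53.6% ± 4.40 in control hearts (SD, n = 3 each).

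Copies of Leu-CAG-2 had unlike values too. Precursor Leu-CAG-2-3 had 109, 123 and 129 reads in knockout hearts and 67, 96 and 102 in control hearts (log2 fold change 0.83 ± 0.22, adjusted p = 0.00816). Its call was lost with total counts (0.48) and under snoRNA and scaRNA scaling (-0.01). Leu-CAG-2-2 had 77, 89 and 83 reads in knockout hearts and 12, 24 and 29 in control hearts (2.32 ± 0.29, adjusted p = 5.6e-05). Leu-CAG-2-1 had 23, 18 and 24 reads in knockout hearts and 23, 28 and 46 in control hearts (-0.19 ± 0.31, adjusted p = 0.62). The first pair had no overlap between groups, while Leu-CAG-2-1 overlapped.

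Most copies of Leu-CAG-1 were at or near 0 in control hearts. Leu-CAG-1-5 had 16, 17 and 10 reads in knockout hearts and 1 in each control heart, a ratio of 18.6 with an exact 95% counting interval of 5.94 to 93.6 (edgeR adjusted p = 0.000108). It passed the filter on low counts only through knockout hearts. Leu-CAG-1-1, Leu-CAG-1-2 and Leu-CAG-1-3, named after their values were seen and too low for the test, had 14, 19 and 17 reads over the knockout hearts and 0 over the control hearts. They were at least 6.05-fold, 8.21-fold and 7.34-fold higher against the limit of 3 reads over the control group. Among the leucine copies of other anticodons, Leu-TAG-3-1 had 44, 31 and 19 reads in knockout hearts and 18, 20 and 28 in control hearts, which overlapped and was not called (0.88 ± 0.34, adjusted p = 0.0516).

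**Figure D4:**
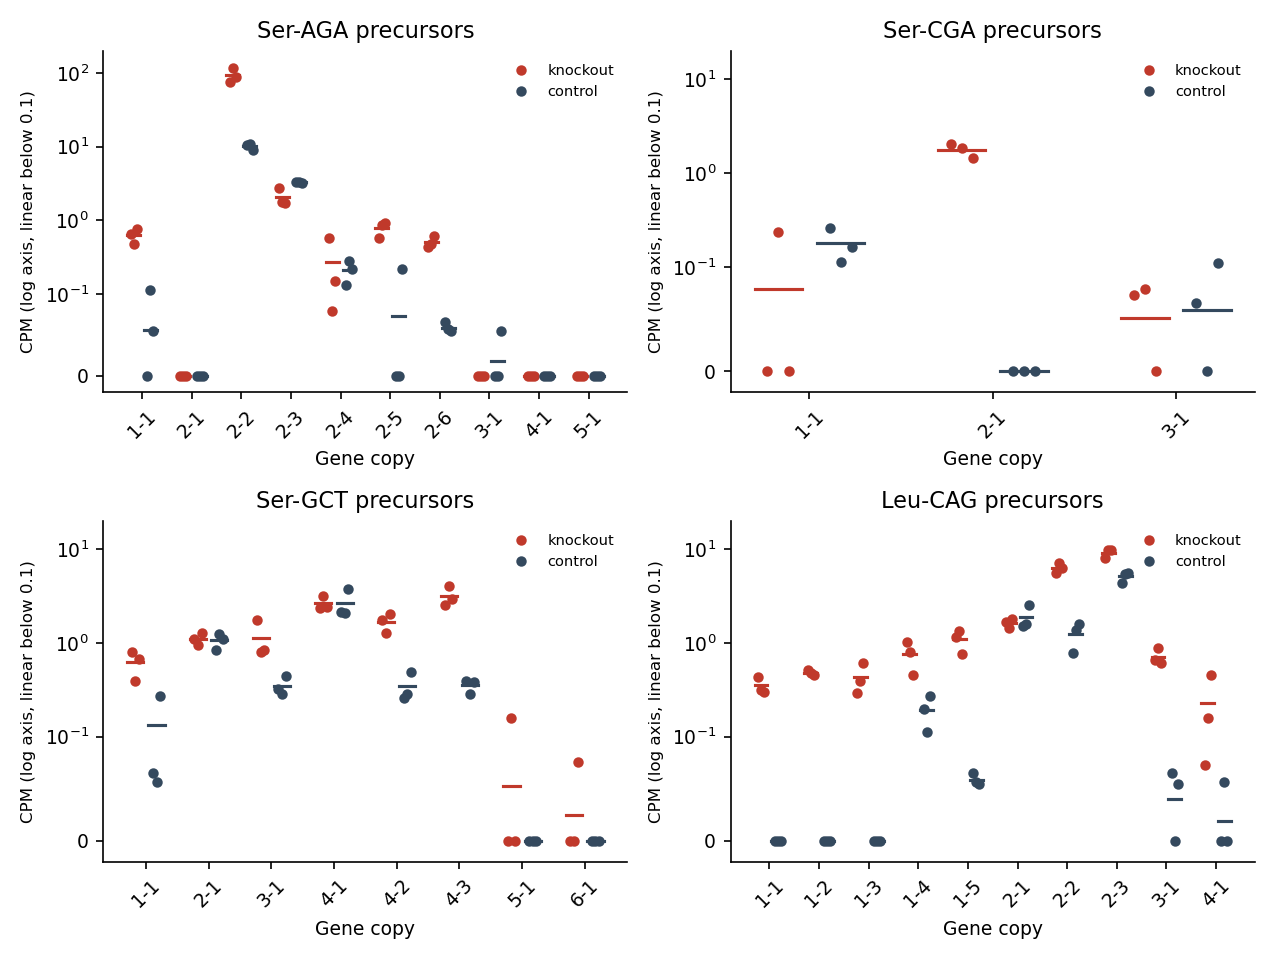
Level of each precursor gene copy of Ser-AGA, Ser-CGA, Ser-GCT and Leu-CAG in CPM, on a log axis that is linear below 0.1. Points are hearts, 3 knockout to the left of 3 control, and lines are group means. Ser-AGA-2-2 and Ser-GCT-4-3 lie higher in all 3 knockout hearts, Ser-GCT-4-1 and Leu-CAG-2-1 overlap, and Ser-CGA-2-1 and Leu-CAG-1-1 to Leu-CAG-1-3 are at 0 in all 3 control hearts.

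The value of precursor Ser-TGA depended on which features were counted in it. As the tRNA features give it, the Ser-TGA precursor had 1, 0 and 0 reads in knockout hearts and 5, 5 and 3 in control hearts, a ratio of 0.0997 with an exact 95% counting interval of 0.00235 to 0.664, and it was too low for the test. All these reads were of Ser-TGA-1-1, and Ser-TGA-2-1 and Ser-TGA-2-2 had 0 reads in every library, as did Ser-AGA-2-1. The same table lists n-TStga1 as a miRNA gene, although RefSeq places a Ser-TGA tRNA gene within its transcript. As annotated, that transcript has 4 nt of leader and 23 nt of trailer.

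Reads of n-TStga1 rose in knockout hearts. It had 35, 59 and 51 reads in knockout hearts and 15, 4 and 8 in control hearts, with no overlap (log2 fold change 2.77 ± 0.45, adjusted p = 0.000314). With the reads of n-TStga1 and of Gm44456, the gene that holds n-TStga2, added to the tRNA features, precursor Ser-TGA had 37, 60 and 51 reads in knockout hearts and 22, 11 and 11 in control hearts. That sum was higher in knockout hearts (2.19 ± 0.40, adjusted p = 0.000419), and so was its ratio to mature Ser-TGA (log2 change 3.30 ± 0.54, limma adjusted p = 0.000807). Most of that transcript (82 nt) is the mature tRNA itself, and whether its reads carry leader or trailer bases was not tested. The direction of precursor Ser-TGA was opposite with and without these reads. Gm44456 alone, with 1, 1 and 0 reads in knockout hearts and 2, 2 and 0 in control hearts, was too low for the test. Whether the gene copies with 0 reads are the ones counted under these gene names was not tested.

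The direction of the mature results depended on what the libraries were scaled to. The median log2 fold change of all features was -0.01 with TMM factors, -0.35 with total counts, -0.19 when scaled by miRNA genes, -0.86 when scaled by snoRNA and scaRNA genes, and 0.54 when scaled by snRNA and rRNA genes. Calls over all features were 265 higher and 309 lower with TMM factors, 170 and 432 with total counts, 190 and 356 with miRNA genes, 101 and 659 with snoRNA and scaRNA genes, and 409 and 224 with snRNA and rRNA genes. Of the member sums, 4 were higher and 6 lower with TMM factors, 4 and 9 with total counts, 2 and 10 with snoRNA and scaRNA genes, and 7 and 2 with snRNA and rRNA genes. Precursors of Ser-AGA and Ser-CGA were higher, and precursor SeC and mature Leu-TAA lower, under all of them.

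**Figure D5:**
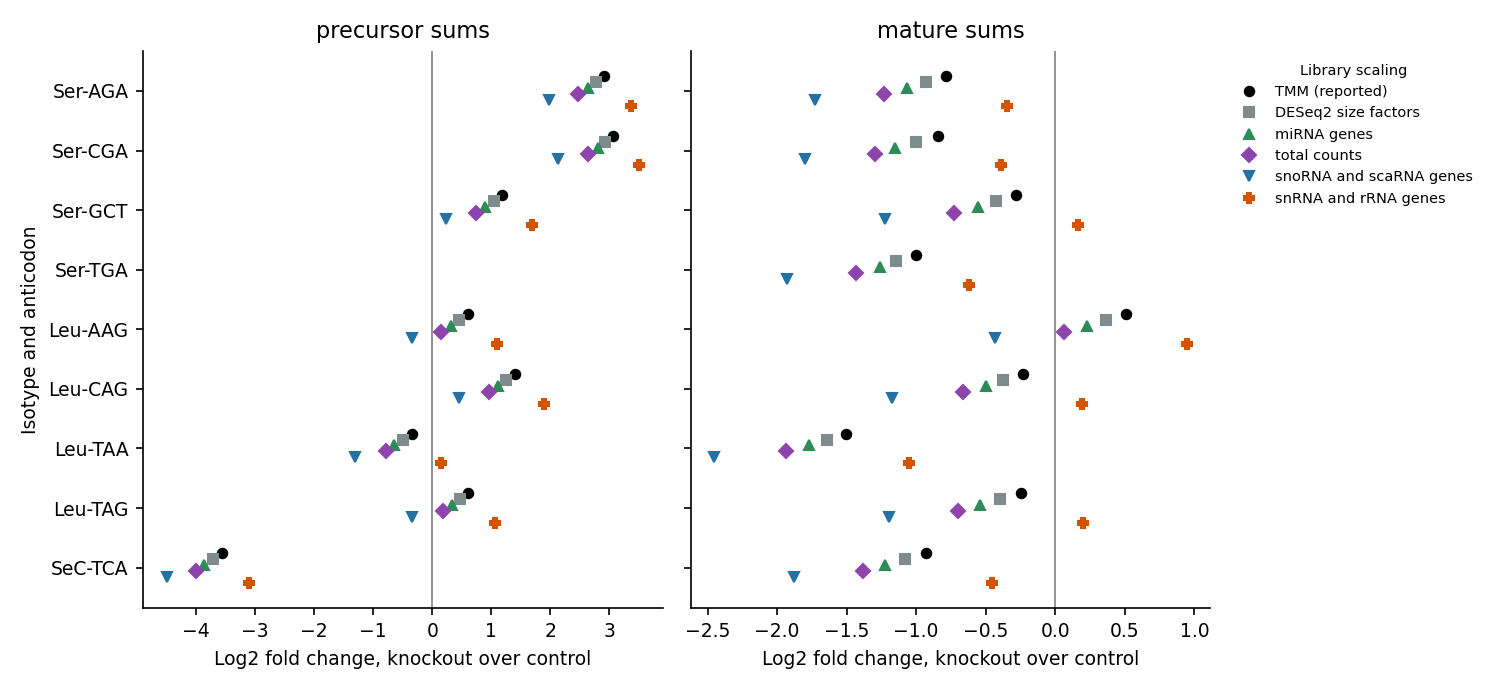
Log2 fold change, knockout over control, of each precursor (left) and mature (right) sum under 6 ways to scale the libraries. Each marker is the fitted value of 3 knockout against 3 control hearts under 1 scaling, and the vertical line marks 0. Markers for Ser-AGA, Ser-CGA and SeC-TCA precursors stay on 1 side of the line, while mature Leu-CAG, Leu-TAG and Ser-GCT cross it with snRNA and rRNA genes (0.19, 0.20 and 0.17).

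Shares of all counts per isotype and form had the same directions. They divide by total counts, as the total-count scaling above does, and so are no separate check of the direction. Serine precursors took 0.00965% ± 0.00122 of all counts in knockout hearts and 0.00216% ± 8.53e-05 in control hearts, 4.47-fold more. Most of these serine precursor reads in knockout hearts were of the copy Ser-AGA-2-2. Leucine precursors took 0.00260% ± 0.000172 in knockout hearts and 0.00166% ± 0.000425 in control hearts. The SeC precursor took 2.02e-05% in knockout hearts and 0.000334% in control hearts, 16.5-fold less. All 6 shares, those of the mature forms included, differed with an exact two-sided permutation p of 0.1, unchanged by adjustment over the 6 and the smallest that 3 against 3 libraries allow. With snoRNA and scaRNA genes left out of the denominator, mature leucine overlapped between groups (log2 ratio -0.11, exact permutation p = 0.5) and the other 5 shares did not.

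Within nuclear tRNA reads the members took a larger share in knockout hearts. They made up 3.93%, 5.40% and 3.17% of nuclear tRNA counts in knockout hearts, against 0.629%, 0.561% and 0.455% in control hearts. Other mature nuclear tRNAs fell to 0.444% of all counts in knockout hearts, against 3.33% in control hearts. With nuclear tRNA counts as the denominator, the shares of mature serine, leucine and SeC tRNAs were higher in knockout hearts (log2 ratios 1.71, 1.98 and 1.41), opposite to their direction per all counts.

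Other transcripts of RNA polymerase III, which also transcribes tRNA genes, were lower or not called. Of 9 listed and tested, 0 were higher, 6 were lower and 3 were not called. Rn7sk, the 7SK RNA that restrains transcription elongation, averaged 54.7 ± 17.5 CPM in knockout hearts and 1522 ± 496 CPM in control hearts (log2 fold change -4.80 ± 0.33, adjusted p = 8.28e-07). Rpph1, the RNA of RNase P, which cuts the 5′ leader of precursor tRNAs, averaged 56.0 ± 1.76 CPM in knockout hearts and 51.0 ± 8.81 CPM in control hearts and was not called (SD, n = 3 each). The 4 mitochondrial serine and leucine tRNAs, made from polycistronic transcripts that RNase Z also cuts, were all lower, with log2 fold changes of -1.63 for mt-Tl1, -3.80 for mt-Ts2, -4.68 for mt-Ts1 and -4.75 for mt-Tl2.

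The authors' deposited table gave an adjusted p to 62 members and passed 16 of them at the same threshold, 14 higher and 2 lower. Of the 14 single members called here, 9 were also called in the authors' deposited table, all 9 with the same sign. The calls not shared were all of mature members called lower here. They were SeC-TCA-1, Ser-AGA-1, Ser-AGA-2, Ser-GCT-2 and Ser-TGA-2, with the authors' DESeq2 adjusted p between 0.0526 and 0.186. Leu-TAA-2 was the only mature member called in both. A further 7 that the authors' deposited table called were too low for the filter used here.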

How the data were processed

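For each of 6 hearts the authors deposited whole-number raw counts of reads per feature, and for the series their comparison of genotypes (log2 fold changes and adjusted p-values, per the file headers). Their normalized counts were not used here. The submitters' processing notes name build mm10, DESeq2 1.16.1, featureCounts 1.5.1, Bowtie2 2.2.9 and cutadapt 1.14. Not given in the sources used here are the annotation, the strand setting, the treatment of reads with several alignments and the merging of 4 technical replicates per mouse. Counts of near-identical tRNA genes, and the split of reads between mature and precursor features and overlapping genes, are therefore uncertain. Positions of the deposited tRNA features were not used here.

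Features kept by filterByExpr (minimum count 10, minimum total 15, by group) held at least 99.89% of each library's counts and were tested with edgeR 4.0.16 (glmQLFit and glmQLFTest, TMM factors 0.949, 0.828 and 0.889 in knockout and 1.14, 1.09 and 1.15 in control libraries, R 4.3.3), with Benjamini-Hochberg adjustment over all features. An adjusted p under 0.05 was called. Every adjusted p is from edgeR unless limma is named. Sums per anticodon and form were tested in a fit that replaced the tRNA features by their sums. The biological coefficient of variation was 0.217 (0.208 with sums). CPM is the count per 1e6 of TMM-scaled library size, and an SE is the log2 fold change divided by the root of the F statistic. Ratios were tested with limma 3.58.1. Intervals and limits cover counting error only. Figures were drawn with matplotlib 3.10.9, tables were made in pandas 2.3.3 and SciPy 1.17.1 (Python 3.11.15), and the fits were tested on simulated counts.

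Alternatives were other scalings, filters and pseudocounts, DESeq2 1.42.0, a replicate block and leaving out each library. The members, lists and named features were chosen with earlier results of these data known. The text gives every tested sum, the 8 most abundant tested features of each form and up to 3 called features of each form and direction with the largest change. No libraries were alike within sampling noise (lowest chi-square per degree of freedom 82.8).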

Additional observations from a re-analysis of the deposited data

How the results depend on the processing

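Counts of calls depended on scaling and filters. Mature members called lower were 6, but 12 with total counts, 16 with snoRNA and scaRNA factors, and 1 each with snRNA and rRNA factors, with no filter and with a mean count of at least 50. They were 3 to 6 when single libraries were left out. Mature member sums called lower were 5, but 8 with total counts or snoRNA and scaRNA factors, 1 with snRNA and rRNA factors or no filter, 2 with a mean count of at least 50, and 2 to 5 with single libraries left out. With snRNA and rRNA factors 5 mature members were called higher, and with snoRNA and scaRNA factors 7 precursor members were called lower (0 and 1 with TMM factors and the filter). With no filter 1 mature member was called higher. Precursor members called higher were 7, but 19 with no filter and 3 with a mean count of at least 50. Precursor member sums called higher were 4, but 2 with snoRNA and scaRNA factors. Member sums called were 10, but 5 with a mean count of at least 50. All features called were 574, but 1141 with no filter and 374 with a mean count of at least 50. The stricter filter tested fewer features; for the other settings the cause was not tested.

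Among fitted log2 fold changes, precursor Leu-CAG-2-3 was the only called one that turned, to -0.0135 with snoRNA and scaRNA factors. The same factors gave -0.43 for mature Leu-AAG-2, -0.47 for Leu-AAG-1, -0.43 for the mature Leu-AAG sum, -0.35 for precursor Leu-AAG and -0.34 for precursor Leu-TAG. Factors from snRNA and rRNA genes gave 0.0091 for mature Leu-TAG-3, 0.30 for Leu-TAG-1, 0.34 for Leu-CAG-1, 0.10 for Leu-CAG-2, 0.26 for Leu-CAG-3, 0.57 for precursor Ser-GCT-4-1, 0.41 for Leu-CAG-2-1, 0.15 for precursor Leu-TAA, and 0.19, 0.20 and 0.17 for the mature sums of Leu-CAG, Leu-TAG and Ser-GCT. With no filter, values were 0.11 for Leu-TAG-1, 0.15 for Leu-CAG-1, 0.097 for Leu-CAG-3, 0.36 for Ser-GCT-4-1, 0.19 for Leu-CAG-2-1, and 0.037 and 0.023 for the mature sums of Leu-CAG and Leu-TAG. Leaving out single libraries gave -0.17 to 0.31 for Ser-GCT-4-1, -0.32 to 0.089 for Leu-CAG-2-1 and -0.82 to 0.034 for precursor Leu-TAA. Shares of nuclear tRNA counts turned the mature forms, with log2 ratios of 1.71, 1.98 and 1.41 for mature serine, leucine and SeC.

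Same-numbered libraries did not deviate together (Pearson r of -0.179, -0.0181 and -0.233 across features), and differently numbered ones had r between -0.0575 and 0.197. With so few libraries, these values cannot exclude that the numbers pair the mice. With the replicate block, 536 features were called, with 6 mature members lower and 8 precursor members higher, 13 of 14 single-member calls and 10 of 10 sum calls were shared, 4 ratios were higher, and Ser-GCT-4-1 was at 0.018. Calls of precursor Ser-AGA-2-2, Ser-CGA-2-1, Ser-GCT-4-3, Leu-CAG-2-2, Leu-CAG-1-5 and SeC-TCA-1-1, of mature Leu-TAA-2, and of the ratios of Ser-AGA, Ser-CGA, Ser-GCT, Leu-CAG and SeC were kept in every alternative in which they were tested. Member reads were 2859 to 3282 per knockout library and 2548 to 2931 per control library, and copies with few reads were left out by the filter.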
